A study of Homo sapiens with 8 samples.

Results

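CXCL1, CXCL2, CXCL3, CXCL5, CXCL6 and CXCL8 encode the CXC chemokines that draw neutrophils into inflamed airways. They were chosen by gene symbol, and all 6 were found among the 26485 gene symbols of the tables. The cells were BEAS-2B, a line of human bronchial epithelial cells immortalised by viral genes. Cells received siRNA against LY96, which encodes the lipopolysaccharide-binding protein MD-2, or a control siRNA. Cells stood in BEBM basal medium for 24 h and were then exposed for 24 h to house dust mite (HDM) extract, an airborne allergen mixture, or to PBS, its vehicle. HDM was given to 3 LY96 siRNA libraries and 3 control siRNA libraries, and PBS to 1 LY96 siRNA library and 1 control siRNA library. Nothing in the labels states that the libraries within a group are from separate cultures, and p-values therefore reflect only how far these libraries differ, a spread that may be technical. Expression values were read as FPKM, a fragment count scaled by transcript length and library size. The labels do not name the unit, so comparisons of levels between genes assume that scaling.

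These chemokines carry a glutamate-leucine-arginine triplet ahead of their first cysteines and act on the neutrophil receptors CXCR1 and CXCR2. CXCR2 binds the whole group, while CXCR1 responds mainly to CXCL8, which is interleukin-8, and CXCL6. Epithelial cells make little of them at rest and transcribe them quickly after interleukin-1, tumour necrosis factor or microbial products, through NF-kB bound near the gene start. Their short-lived mRNAs are also controlled by decay factors such as tristetraprolin and Regnase-1.

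The 6 genes lie within 359 kb of chromosome 4 (GENCODE v29, GRCh38). CXCL8 (73740506 to 73743716), CXCL6 (73836497 to 73849064) and CXCL1 (73869393 to 73871242) are on the plus strand. CXCL5 (73995642 to 73998779), CXCL3 (74036589 to 74038807) and CXCL2 (74097035 to 74099293) are on the minus strand. Their promoters are printed because all of them hold the same NF-kB box. Shown are the 150 bases before the RefSeq gene start (GRCh38.p14), 5′ to 3′ on the gene's strand, with the letters GGAATTTCC in capitals. For CXCL2, CXCL3, CXCL5, CXCL6 and CXCL8 the GENCODE v29 gene begins further upstream than the RefSeq start.
CXCL1 (chr4:73869243-73869392, plus strand): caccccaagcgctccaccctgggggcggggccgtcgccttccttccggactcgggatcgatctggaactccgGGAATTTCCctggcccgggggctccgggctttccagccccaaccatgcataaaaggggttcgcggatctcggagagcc
CXCL2 (chr4:74099196-74099345, minus strand): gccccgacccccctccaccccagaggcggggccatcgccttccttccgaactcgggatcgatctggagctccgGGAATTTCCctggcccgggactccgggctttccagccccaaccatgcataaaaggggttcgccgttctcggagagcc
CXCL3 (chr4:74038690-74038839, minus strand): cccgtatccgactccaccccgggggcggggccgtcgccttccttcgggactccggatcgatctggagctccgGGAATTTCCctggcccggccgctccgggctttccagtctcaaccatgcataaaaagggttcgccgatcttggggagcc
CXCL5 (chr4:73998678-73998827, minus strand): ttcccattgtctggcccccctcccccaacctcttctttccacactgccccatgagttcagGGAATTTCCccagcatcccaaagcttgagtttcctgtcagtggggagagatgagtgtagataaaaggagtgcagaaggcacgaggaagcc
CXCL6 (chr4:73836528-73836677, plus strand): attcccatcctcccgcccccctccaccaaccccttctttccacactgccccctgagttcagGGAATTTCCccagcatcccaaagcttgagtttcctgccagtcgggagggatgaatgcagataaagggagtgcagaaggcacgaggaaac
CXCL8 (chr4:73740419-73740568, plus strand): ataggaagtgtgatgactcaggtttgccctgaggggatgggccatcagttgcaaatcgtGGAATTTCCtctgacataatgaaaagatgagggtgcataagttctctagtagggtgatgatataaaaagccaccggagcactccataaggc

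GGAATTTCC was found in 6 of 6 of these promoters when the 250 bases before the start were searched on both strands. It was in 117 of 27305 RefSeq promoters searched the same way, or 0.428%. The letters searched for are those that these promoters share, so 6 of 6 is a description and not a test. The longer form with 1 more G in front, which overlaps it, was in 5 of the 6 and in 0.157% of all promoters, and CXCL8 lacks that G. The box began 78, 77 and 78 bases before the start in CXCL1, CXCL2 and CXCL3, and 90, 89 and 91 bases before it in CXCL5, CXCL6 and CXCL8. The AP-1 letters TGACTCA were found in the CXCL8 window alone, beginning 137 bases before the start, and in 4.16% of all promoters. The printed stretches fell into 3 families by sequence. CXCL1, CXCL2 and CXCL3 were 86.1% to 88.7% identical to each other and CXCL5 was 89.4% identical to CXCL6, whereas CXCL8 was 39.7% to 45.8% identical to the others. Within a family the box therefore lies in sequence that is alike throughout.

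The libraries were alike in FPKM totals, which ranged from 329777 to 340328, and read depth is unknown. LY96 was listed at 0 FPKM in all 8 libraries, so its depletion could not be checked, and the siRNA groups are named by their labels. TLR4, the receptor that signals with MD-2, averaged 4.34 ± 0.473 FPKM with LY96 siRNA and HDM and 3.99 ± 0.178 FPKM with control siRNA and HDM (SD, n = 3 each). All 8 airway epithelial markers were above the level tested. Their summed FPKM was 2316 to 2496 in LY96 siRNA HDM libraries and 2519 to 2636 in control siRNA HDM libraries. It was 2641 in the LY96 siRNA PBS library and 2568 in the control siRNA PBS library. Between the siRNAs under HDM 1 of the 8 rose and 3 fell, against 6.68% and 8.92% of all genes tested. None of 10 leukocyte markers reached a mean of 1 FPKM, with PTPRC, FCGR3B, MPO and CD3E at 0 throughout, and their summed FPKM never passed 0.591. Of 6 fibroblast markers 2 were tested, with sums of 16.9 to 19.0 FPKM in LY96 siRNA HDM libraries, 16.0 to 17.0 FPKM in control siRNA HDM libraries, 25.7 FPKM in the LY96 siRNA PBS library and 22.9 FPKM in the control siRNA PBS library. COL1A1 rose with LY96 siRNA under HDM (log2 0.37, adjusted p = 0.0269), and PDGFRB fell with HDM by 0.62 on the log2 scale under LY96 siRNA and by 0.59 under control siRNA (adjusted p = 0.00163 and 0.00381). In PBS COL1A1 was at 10.2 FPKM with LY96 siRNA and 6.67 FPKM with control siRNA. Of 4 endothelial markers 0 were tested. Ribosomal RNA took 1.03% to 1.31% of the FPKM total with LY96 siRNA and HDM and 0.475% to 0.824% with control siRNA and HDM, and the part of these values in the results below was not tested.

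CXCL1, CXCL2 and CXCL3 are near-duplicate ligands of CXCR2. CXCL1 had 48.6, 56.6 and 70.7 FPKM with LY96 siRNA and HDM, 24.4, 25.6 and 26.7 FPKM with control siRNA and HDM, 2.01 FPKM with LY96 siRNA and PBS, and 1.56 FPKM with control siRNA and PBS. Every LY96 siRNA HDM library stood above every control siRNA HDM library, and both PBS libraries were far below. For this and the other chemokine genes, how many of all genes tested separate likewise was not counted. CXCL2 had 11.1, 10.9 and 14.4 FPKM with LY96 siRNA and HDM, 7.95, 5.51 and 6.89 FPKM with control siRNA and HDM, 0.707 FPKM with LY96 siRNA and PBS, and 0.416 FPKM with control siRNA and PBS. Its HDM groups did not overlap either, but they came closer, the lowest LY96 siRNA library being 1.38 times the highest control siRNA library. CXCL3 had 3.99, 3.60 and 4.85 FPKM with LY96 siRNA and HDM, 2.17, 2.32 and 2.62 FPKM with control siRNA and HDM, 0.0948 FPKM with LY96 siRNA and PBS, and 0.113 FPKM with control siRNA and PBS. It too was separate between siRNAs under HDM, by 1.37 times at the nearest pair, and in PBS it was near 0 with either siRNA.

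CXCL5 and CXCL6 form the second family, and CXCL6 also engages CXCR1. CXCL5 had 3.85, 4.36 and 5.63 FPKM with LY96 siRNA and HDM, 2.45, 2.36 and 1.95 FPKM with control siRNA and HDM, 0.290 FPKM with LY96 siRNA and PBS, and 0.258 FPKM with control siRNA and PBS. Its HDM groups did not overlap, and the PBS libraries were almost level. CXCL6 had 3.62, 4.30 and 6.09 FPKM with LY96 siRNA and HDM, 1.53, 1.68 and 1.62 FPKM with control siRNA and HDM, and 0.151 FPKM with LY96 siRNA and PBS, and was listed at 0 with control siRNA and PBS. Its siRNA groups were the farthest apart of the 6 genes under HDM, the lowest LY96 siRNA library being 2.15 times the highest control siRNA library. CXCL8, the main ligand of CXCR1, had 15.9, 20.0 and 20.5 FPKM with LY96 siRNA and HDM, 7.52, 7.81 and 7.26 FPKM with control siRNA and HDM, 0.607 FPKM with LY96 siRNA and PBS, and 0.590 FPKM with control siRNA and PBS. The HDM groups were apart by 2.04 times at the nearest pair, while the PBS libraries were almost equal.

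**Figure D1:**
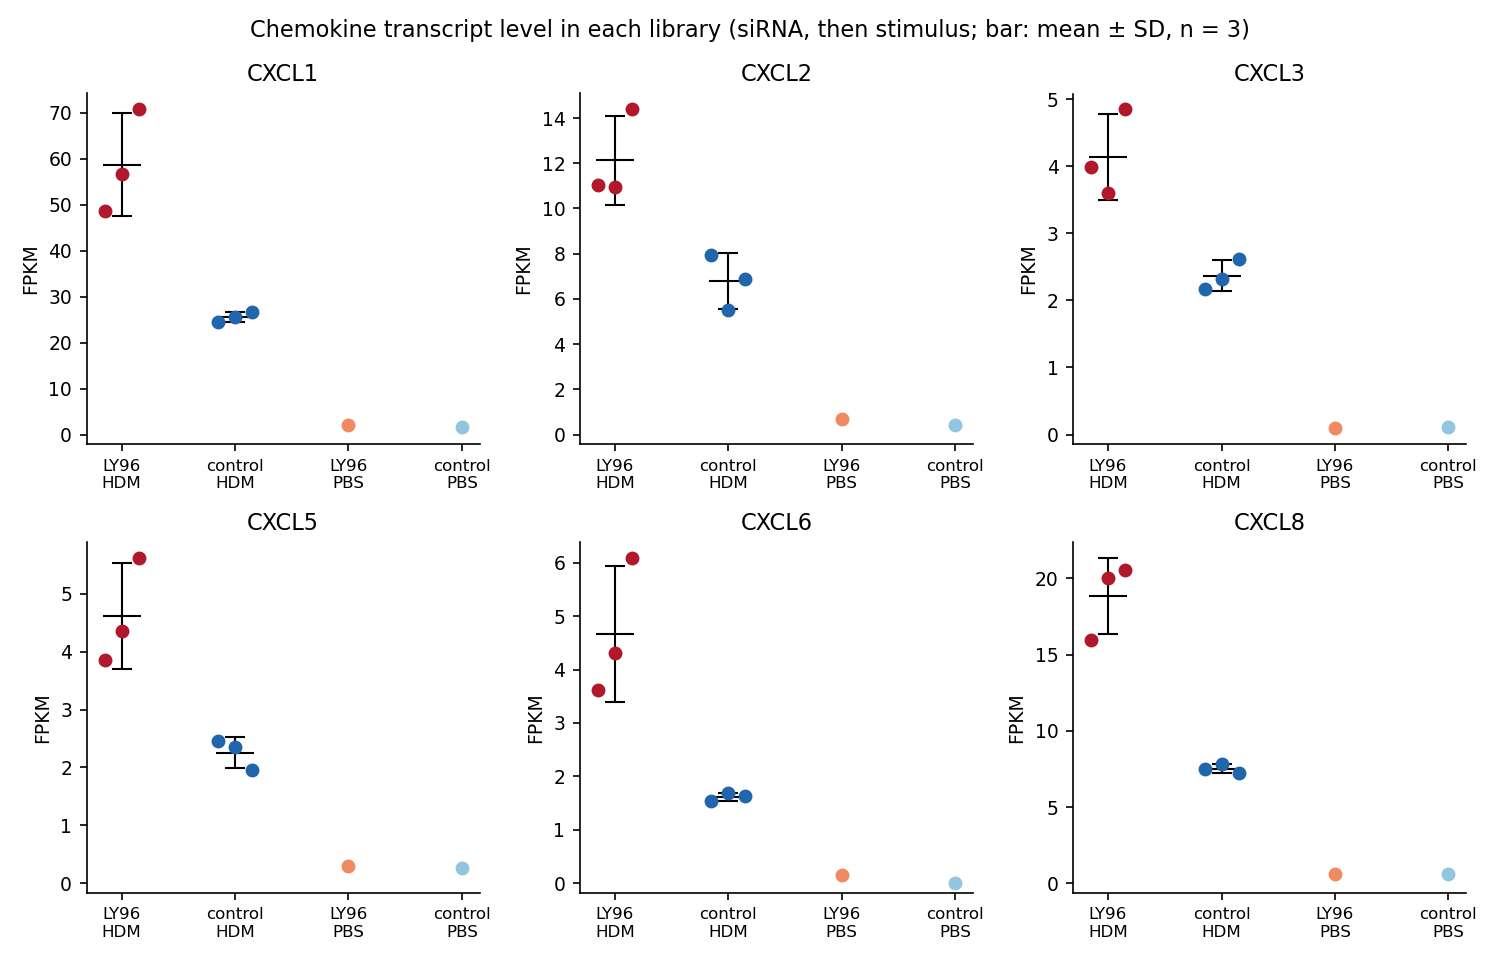
FPKM of the 6 chemokine genes in each of the 8 libraries, with the 4 groups along each x axis. Points are libraries, and the bars on the HDM groups are mean ± SD (n = 3). In all 6 panels the LY96 siRNA HDM libraries lie above the control siRNA HDM libraries, and the PBS libraries lie near 0. The share of all genes that separate in this way was not counted.

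Under HDM, all 6 chemokine genes were higher with LY96 siRNA than with control siRNA. CXCL6 was 2.90-fold, CXCL8 2.50-fold and CXCL1 2.29-fold higher by mean FPKM, followed by CXCL5 at 2.05-fold, CXCL2 at 1.79-fold and CXCL3 at 1.75-fold. By limma on log2(FPKM + 1) with Benjamini-Hochberg adjustment over all 12598 genes tested, 6 of 6 rose at an adjusted p below 0.05, against 6.68% of all genes tested called higher and 8.92% called lower, or 842 and 1124 genes. After median-ratio scaling of the libraries 1080 genes were higher and 869 lower, and the 6 chemokine genes were still called. The difference for CXCL8 was log2 1.21 ± 0.09 SE (adjusted p = 0.000209) and for CXCL6 log2 1.09 ± 0.14 SE (adjusted p = 0.00252). That for CXCL1 was log2 1.15 ± 0.14 SE (adjusted p = 0.00607). CXCL5 differed by log2 0.78 ± 0.12 SE (adjusted p = 0.00379), CXCL3 by 0.60 ± 0.10 SE (adjusted p = 0.00479) and CXCL2 by 0.76 ± 0.15 SE (adjusted p = 0.0205). CXCL2 lost the call when control siRNA HDM replicate 3 was left out (adjusted p = 0.0727). The median difference of the 6 genes was log2 0.94, beside -0.02 over all genes tested. On this scale the 6 genes ranked between 18 and 100 of 12598 from the largest rise.

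The rise was uneven across the LY96 siRNA libraries. LY96 siRNA HDM replicate 3 had the highest value of its group for 6 of 6 genes, and also the highest share of ribosomal RNA. How many of all genes were highest in that library was not counted. The 6 genes together summed to 87.1, 99.8 and 122 FPKM with LY96 siRNA and HDM, against 46.0, 45.3 and 47.1 FPKM with control siRNA and HDM. They summed to 3.86 FPKM with LY96 siRNA and PBS and 2.94 FPKM with control siRNA and PBS. Without LY96 siRNA HDM replicate 3 all 6 genes were still called higher, and CXCL1 was then at log2 1.01 and CXCL6 at log2 0.92.

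HDM extract raised all 6 genes with either siRNA. Each HDM library was above the single PBS library of its siRNA for all 6 genes. The share of all genes tested for which this holds was not counted. With LY96 siRNA the ratio of mean FPKM, HDM over PBS, was 29.2 for CXCL1, 17.2 for CXCL2, 43.7 for CXCL3, 15.9 for CXCL5, 30.9 for CXCL6 and 31.0 for CXCL8. With control siRNA it was 16.4 for CXCL1, 16.3 for CXCL2, 20.9 for CXCL3, 8.72 for CXCL5 and 12.8 for CXCL8, and CXCL6 has no ratio because its PBS value was listed at 0. The ratios for CXCL3, CXCL5 and CXCL6 rest on PBS values below 0.3 FPKM, where the number of fragments is unknown.

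In limma, 6 of 6 genes rose with HDM under LY96 siRNA, where 2.91% of the 12604 genes tested were called higher and 1.98% lower. Under control siRNA 6 of 6 rose too, where 1.55% were called higher and 0.738% lower. For 5 of the 6 genes both PBS values were below 1 FPKM, so these genes passed the filter on low values through their HDM libraries and had to differ. With LY96 siRNA the HDM difference was log2 4.29 ± 0.19 SE for CXCL1 (adjusted p = 0.000131) and log2 3.62 ± 0.12 SE for CXCL8 (adjusted p = 1.55e-06). With control siRNA it was log2 3.37 ± 0.19 SE for CXCL1 (adjusted p = 0.000589) and log2 2.42 ± 0.12 SE for CXCL8 (adjusted p = 2.98e-05). On the log2(FPKM + 1) scale CXCL1 had the largest rise of all genes tested with control siRNA and the second largest with LY96 siRNA. With a pseudocount of 0.1 CXCL6 was above it with control siRNA, at log2 4.10 against 3.95, and by ratio of means CXCL3 was above it with either siRNA. The other 4 genes differed by log2 2.11 to 2.93 with LY96 siRNA and by log2 1.37 to 2.45 with control siRNA (adjusted p of at most 0.00993). Each siRNA had a single PBS library, which the test assumes to vary as the HDM libraries do. The call of CXCL6 with control siRNA was lost without the filter on low values (adjusted p = 0.0543).

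**Figure D2:**
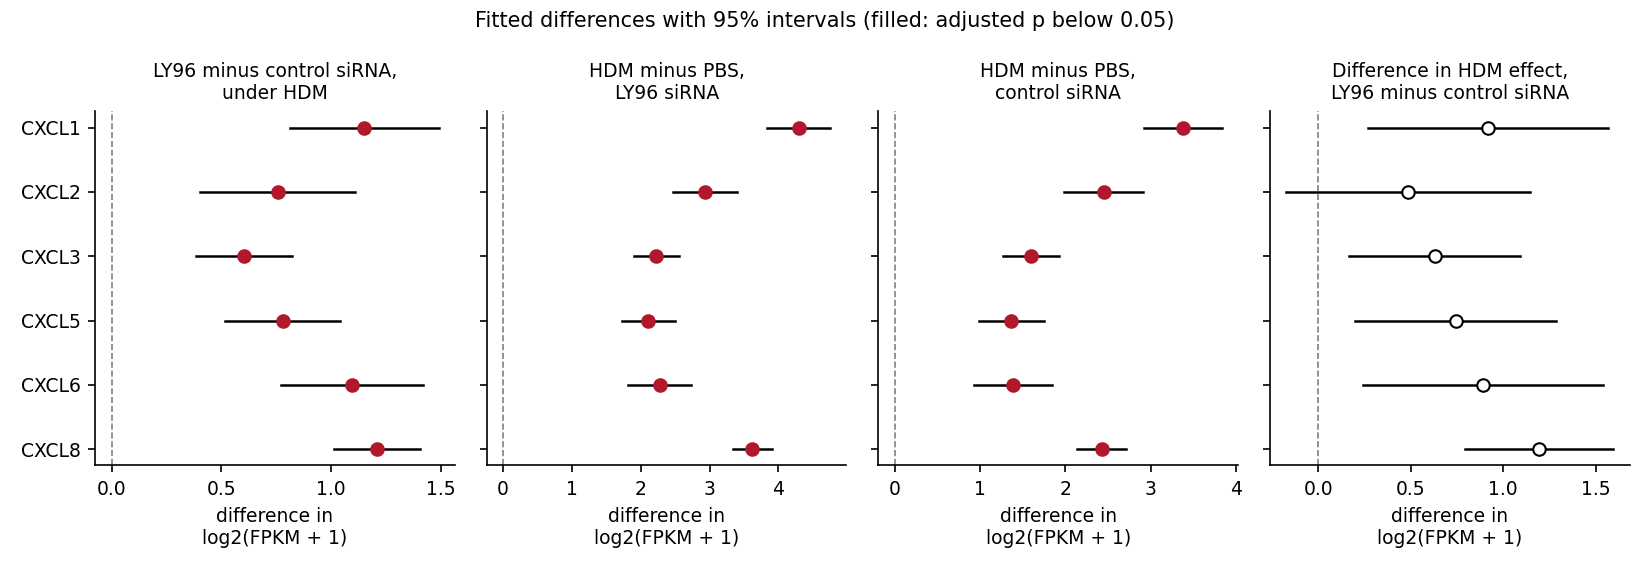
Fitted differences in log2(FPKM + 1) for the 6 genes in 4 comparisons, with 95% intervals from limma. Filled points have an adjusted p below 0.05. The siRNA difference under HDM and both HDM responses are filled for all 6 genes, and the difference between the HDM responses is filled for none.

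None of the 6 genes passed the test of whether the HDM response itself differed between the siRNAs. The difference in response, LY96 siRNA minus control siRNA, was above 0 for all 6, from log2 0.49 for CXCL2 to log2 1.19 for CXCL8. By limma with Benjamini-Hochberg adjustment 0 of 6 passed, where 0.0555% of 12604 genes were called higher, namely 7 genes. At an unadjusted p below 0.05 there were 5 of 6 chemokine genes and 956 of all genes tested. CXCL8 came closest, at log2 1.19 ± 0.18 SE with a 95% interval of 0.79 to 1.60 (adjusted p = 0.0889). CXCL8 passed without LY96 siRNA HDM replicate 1 (adjusted p = 0.0338) and after quantile normalization (adjusted p = 0.0446). CXCL2 had log2 0.49 with an interval of -0.17 to 1.15 (adjusted p = 0.738), and the ratio of its HDM folds was 1.05. The value for CXCL6 was log2 0.89, and log2 0.12 with a pseudocount of 0.1. In PBS the 2 libraries give values with no test. LY96 siRNA over control siRNA was 1.28 for CXCL1, 1.70 for CXCL2, 0.838 for CXCL3, 1.12 for CXCL5 and 1.03 for CXCL8.

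CXCL1 dominated the group in every condition. It made up 56.8% ± 1.02 of the summed FPKM with LY96 siRNA and HDM and 55.4% ± 2.09 with control siRNA and HDM (SD, n = 3 each), 52.0% with LY96 siRNA and PBS, and 53.1% with control siRNA and PBS. In LY96 siRNA HDM libraries CXCL8 followed at 18.4% ± 1.63 and CXCL2 at 11.8% ± 0.861 (SD, n = 3 each). With control siRNA and HDM, CXCL8 was at 16.3% ± 0.918 and CXCL2 at 14.7% ± 2.55 (SD, n = 3 each). The 3 lowest genes, CXCL3, CXCL5 and CXCL6, took 3.60% to 4.98% each with LY96 siRNA and HDM and 3.33% to 5.57% each with control siRNA and HDM.

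The order of the levels was CXCL1, CXCL8, CXCL2 in both HDM groups. With LY96 siRNA and HDM these ranges were separate, and CXCL6, CXCL5 and CXCL3 below them overlapped. With control siRNA and HDM the ranges of CXCL8 and CXCL2 overlapped, as did those of CXCL3 and CXCL5, while CXCL6 was lowest and separate. CXCL6 was thus last of the 6 by mean with control siRNA and HDM and level with CXCL5 with LY96 siRNA and HDM.

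**Figure D3:**
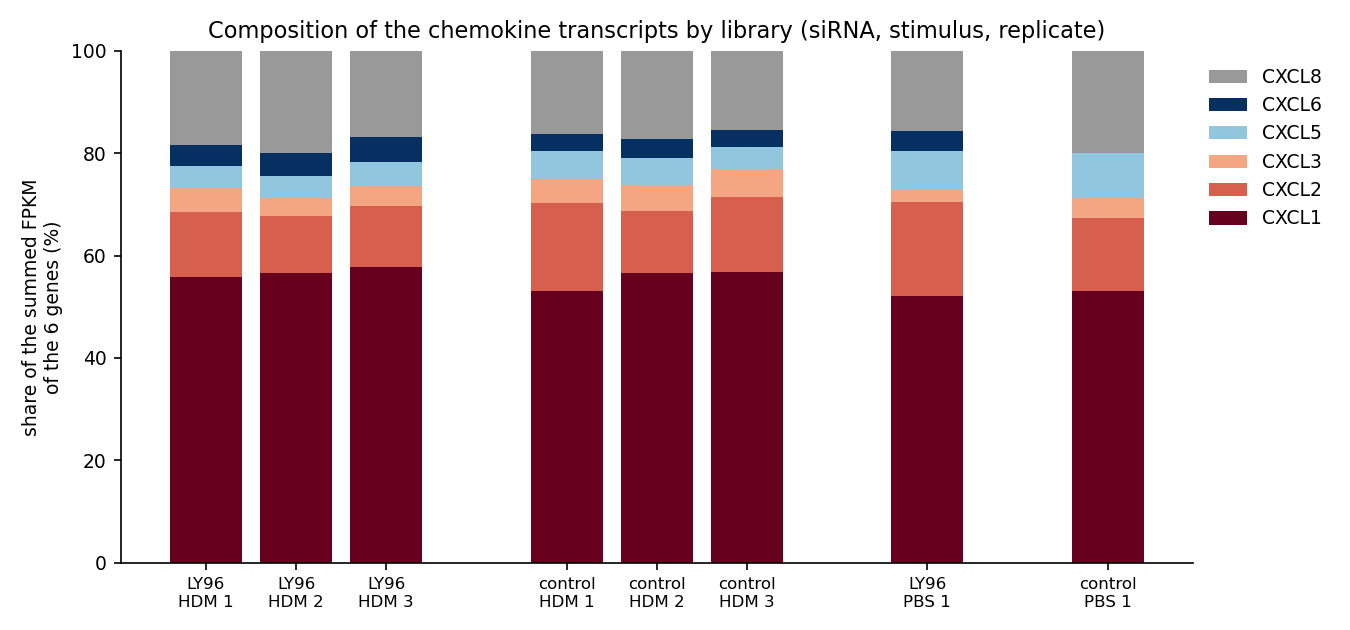
Share of each gene in the summed FPKM of the 6 chemokine genes, in percent, for the 8 libraries. CXCL1 takes between 52.0% and 57.9% in every library. The CXCL6 band is at 0 in the control siRNA PBS library.

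Ratios between the genes within a library show how evenly they moved. All 15 pairs were compared between LY96 siRNA and control siRNA under HDM, and 7 had ratios that did not overlap. The ratio of CXCL6 to CXCL3 was 1.11 with LY96 siRNA and 0.682 with control siRNA, and that of CXCL6 to CXCL2 was 0.379 with LY96 siRNA and 0.240 with control siRNA (geometric means, n = 3 each). The ratio of CXCL6 to CXCL5, its closest relative by promoter, was 1.00 with LY96 siRNA and 0.719 with control siRNA. CXCL8 to CXCL2 was 1.56 with LY96 siRNA and 1.12 with control siRNA, and CXCL8 to CXCL3 was 4.55 with LY96 siRNA and 3.19 with control siRNA. The other separate pairs were CXCL1 to CXCL3 and CXCL6 to CXCL1. Each of the 7 had a two-sided exact permutation p of 0.1, the smallest that 3 against 3 allows, and an adjusted p of 0.214 over the 15 pairs. The ratio of CXCL2 to CXCL3 was 2.93 with LY96 siRNA and 2.84 with control siRNA (exact permutation p = 0.9, a log2 difference of 0.04). CXCL1, CXCL2 and CXCL3 share transcript sequence, with 5.73%, 9.24% and 5.26% of their 50-base windows found in another of the 6 genes. CXCL5, CXCL6 and CXCL8 share none. How reads of shared stretches were divided is not given, and the values of CXCL1, CXCL2 and CXCL3 are uncertain to that extent.

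The genes around the cluster were mostly silent or moved less. PPBP and PF4, platelet chemokine genes that lie between CXCL1 and CXCL5, were listed at 0 in all 8 libraries. PF4V1, between CXCL6 and CXCL1, had 0.227, 0.606 and 0.437 FPKM with LY96 siRNA and HDM, 0.133, 0.115 and 0 FPKM with control siRNA and HDM, and was listed at 0 in both PBS libraries. It was below the level tested. Of 8 flanking genes without chemokine function 3 were tested. AREG, an EGF receptor ligand 705 kb from the CXCL8 start, rose by log2 0.29 with LY96 siRNA under HDM (adjusted p = 0.00206), and with HDM by log2 0.52 under LY96 siRNA (adjusted p = 0.000697) and log2 0.59 under control siRNA (adjusted p = 0.000589). EREG, a related ligand, was at log2 0.01 between the siRNAs (adjusted p = 0.941). With HDM EREG was at log2 0.45 under LY96 siRNA and log2 0.33 under control siRNA. ANKRD17 was at log2 -0.13 between the siRNAs (adjusted p = 0.0785). In PBS AREG was at 10.4 FPKM with LY96 siRNA and 7.99 FPKM with control siRNA. MTHFD2L, the next gene after CXCL2, stayed between 0.571 and 0.985 FPKM in all libraries and was not tested.

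**Figure D4:**
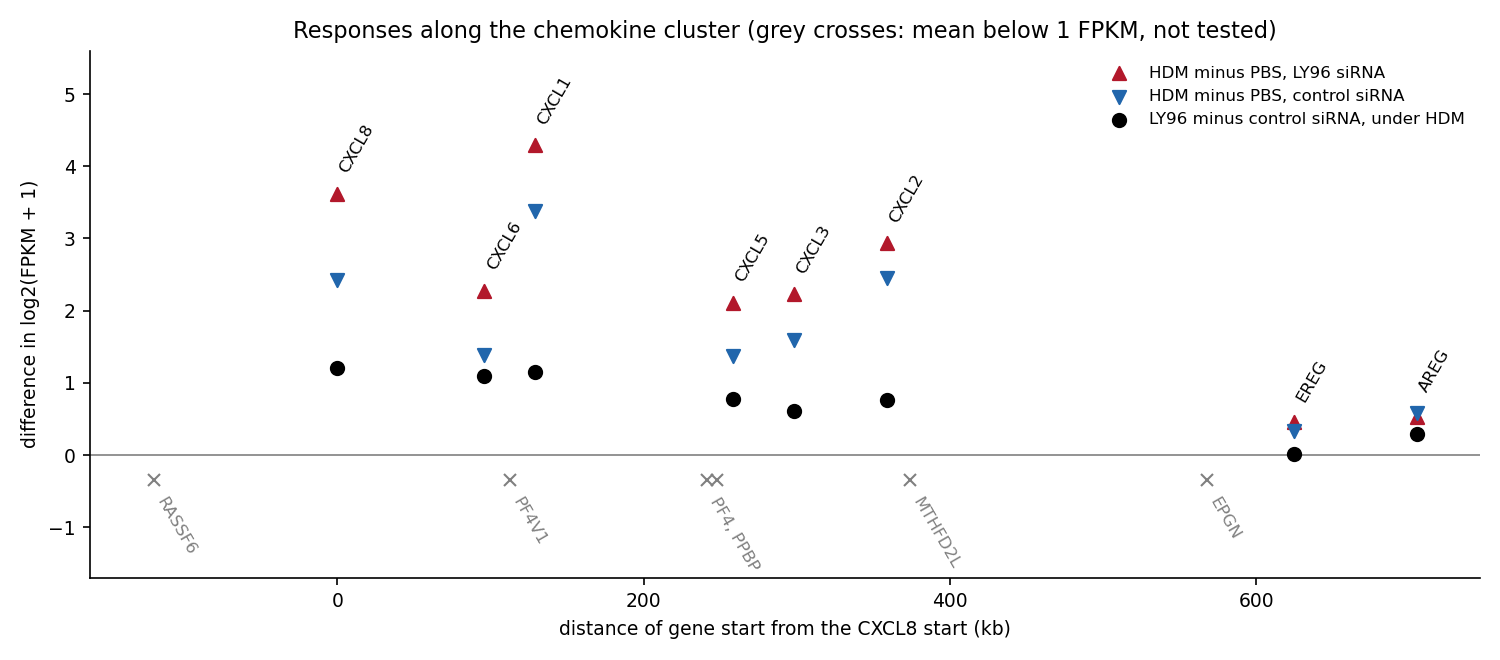
Differences in log2(FPKM + 1) against the distance of each gene start from the CXCL8 start in kb. Red and blue triangles are the HDM responses with LY96 and control siRNA, black circles the siRNA difference under HDM, and grey crosses genes with a mean below 1 FPKM. The 6 chemokine genes, from 0 to 359 kb, have HDM differences of log2 1.37 or more, and EREG and AREG lie below log2 0.6.

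Of 11 other CXC chemokine genes 3 were tested. With LY96 siRNA under HDM 0 rose and 1 fell, against 6.68% and 8.92% of all genes tested. CXCL14, which attracts monocytes and dendritic cells, fell by 0.38 on the log2 scale (adjusted p = 0.00863). CXCL16, a membrane-bound ligand of CXCR6, was at log2 0.01 between the siRNAs (adjusted p = 0.920), and rose with HDM by log2 0.29 under LY96 siRNA (adjusted p = 0.0482) and log2 0.42 under control siRNA (adjusted p = 0.0150). CXCL10, an interferon-induced ligand of CXCR3, was at 2.76 ± 0.712 FPKM with LY96 siRNA and HDM and 1.70 ± 0.279 FPKM with control siRNA and HDM (SD, n = 3 each, log2 0.46, adjusted p = 0.0569). These groups did not overlap, at 2.03 to 3.46 FPKM with LY96 siRNA and 1.46 to 2.00 FPKM with control siRNA. With HDM CXCL10 was at log2 1.13 under LY96 siRNA and log2 0.74 under control siRNA. The signalling receptors were at or near 0. CXCR1 was listed at 0 in all libraries, and CXCR2 was above 0 in 1 library of each HDM group, at no more than 0.0537 FPKM. ACKR1, an atypical receptor that binds these chemokines without signalling through G proteins, was at 7.53 ± 0.598 FPKM with LY96 siRNA and HDM and 5.85 ± 0.385 FPKM with control siRNA and HDM (SD, n = 3 each, log2 0.32, adjusted p = 0.0144). ACKR3, another atypical receptor, had 0.364 to 0.825 FPKM with LY96 siRNA and HDM, 0.313 to 0.405 FPKM with control siRNA and HDM, 1.47 FPKM with LY96 siRNA and PBS, and 1.91 FPKM with control siRNA and PBS, and its mean was below the level tested. ACKR1 overlaps the antisense gene CADM3-AS1, and its value is uncertain where reads were not assigned by strand.

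Among 15 transcription factors and IkB proteins of these promoters 12 rose and 0 fell with LY96 siRNA under HDM. Of all genes tested 6.68% were called higher and 8.92% lower. The median of the list was log2 0.32, beside -0.02 over all genes tested. With HDM the median was log2 0.85 under LY96 siRNA and log2 0.36 under control siRNA, beside 0.01 over all genes tested under either. C/EBPbeta, encoded by CEBPB, was at 63.2 to 71.4 FPKM with LY96 siRNA and HDM and 42.0 to 44.8 FPKM with control siRNA and HDM (n = 3 each, log2 0.59, limma adjusted p = 0.000254). NFKBIA, the NF-kB inhibitor that NF-kB itself induces, was at 70.9 ± 4.61 FPKM with LY96 siRNA and HDM and 54.5 ± 2.58 FPKM with control siRNA and HDM (SD, n = 3 each, log2 0.37, adjusted p = 0.00298). CEBPD rose by log2 0.25 between the siRNAs (adjusted p = 0.00367). RELA, the main activating NF-kB subunit, was at log2 0.10 (adjusted p = 0.119). ATF4, the integrated stress response factor, had the highest level of the list and rose by log2 0.93 between the siRNAs (adjusted p = 3.06e-05). DDIT3 rose by log2 1.14 (adjusted p = 0.000112) and ATF3 by log2 0.68 (adjusted p = 0.00282). ATF4 and its target DDIT3 also passed the test of a difference in HDM response (adjusted p = 0.0430 for both), the only members of this list to do so.

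Among 14 inducing cytokines, receptors and adaptors 10 were tested, and 3 rose and 0 fell with LY96 siRNA under HDM. Their median was log2 0.06, and 6.68% of all genes tested were called higher and 8.92% lower. The 3 that rose were IL1A (log2 0.65), IL1B (log2 0.54) and the tumour necrosis factor receptor gene TNFRSF1A (log2 0.16). The other abundant members IL17RC, MYD88 and IL1RAP were at log2 0.08, 0.03 and -0.10. The interleukin-1 receptor gene IL1R1 was at 1.68 FPKM with LY96 siRNA and HDM and 2.21 FPKM with control siRNA and HDM (log2 -0.26, limma adjusted p = 0.0556). With HDM, IL1A, IL1B and TNFRSF1A were at log2 0.84, 0.84 and 0.25 under LY96 siRNA. Under control siRNA they were at log2 0.33, 0.39 and 0.16. Their differences in HDM response were log2 0.51, 0.45 and 0.09, and none of these passed that test. TNF, IL17A, IL17C and IL36G were below the level tested, and IL17A and IL17C were listed at 0 in all libraries. Of 8 regulators of chemokine mRNA decay 3 rose and 0 fell with LY96 siRNA under HDM, against 6.68% and 8.92% of all genes tested. ZC3H12A, which encodes the nuclease Regnase-1, rose by log2 0.42 between the siRNAs (adjusted p = 0.00206), and by log2 1.38 and 1.34 with HDM under LY96 and control siRNA. The others were ZFP36 (log2 0.21, adjusted p = 0.0208), which encodes tristetraprolin, and ZFP36L1 (log2 0.17, adjusted p = 0.0340). In PBS, LY96 and control siRNA had 6.64 and 4.89 FPKM for ZC3H12A and 12.3 and 12.0 FPKM for ZFP36. For ZFP36L1 they had 24.1 and 20.5 FPKM. HNRNPD and KHSRP, the most abundant of the list, were at log2 -0.01 and -0.03, and ZFP36L2 at log2 0.09. With HDM ZFP36L1 was at log2 -0.27 under LY96 siRNA and log2 -0.22 under control siRNA.

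Of 5 cell-surface proteoglycans that hold chemokines 2 rose and 0 fell with LY96 siRNA under HDM, against 6.68% and 8.92% of all genes tested. SDC4, syndecan-4, rose by log2 0.22 (adjusted p = 0.00340) and GPC1, glypican-1, by log2 0.17 (adjusted p = 0.00720). In PBS, LY96 and control siRNA had 66.4 and 61.9 FPKM for SDC4, and 62.9 and 54.5 FPKM for GPC1. SDC1 was at log2 -0.01 and SDC3 at log2 0.06. Among 6 other neutrophil factors 4 were tested, and the HDM differences of all 4 were above 0 under either siRNA. Their median with HDM was log2 1.53 under LY96 siRNA and log2 1.16 under control siRNA, beside 0.01 over all genes tested under either. Between the siRNAs they moved apart. IL6 rose with LY96 siRNA under HDM, at 4.49 ± 0.789 FPKM against 2.31 ± 0.335 FPKM with control siRNA (SD, n = 3 each, log2 0.72, adjusted p = 0.00516). S100A9 and S100A8, the calprotectin subunits, were lower with LY96 siRNA under HDM by 0.33 and 0.18 on the log2 scale (adjusted p = 0.00386 and 0.0201). They were lower with LY96 siRNA in PBS too. There LY96 and control siRNA had 338 and 474 FPKM for S100A9, and 134 and 167 FPKM for S100A8. C3, the central complement protein, was at log2 0.20 (adjusted p = 0.0952). CSF2 and CSF3, which encode colony-stimulating factors, did not reach a mean of 1 FPKM.

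**Figure D5:**
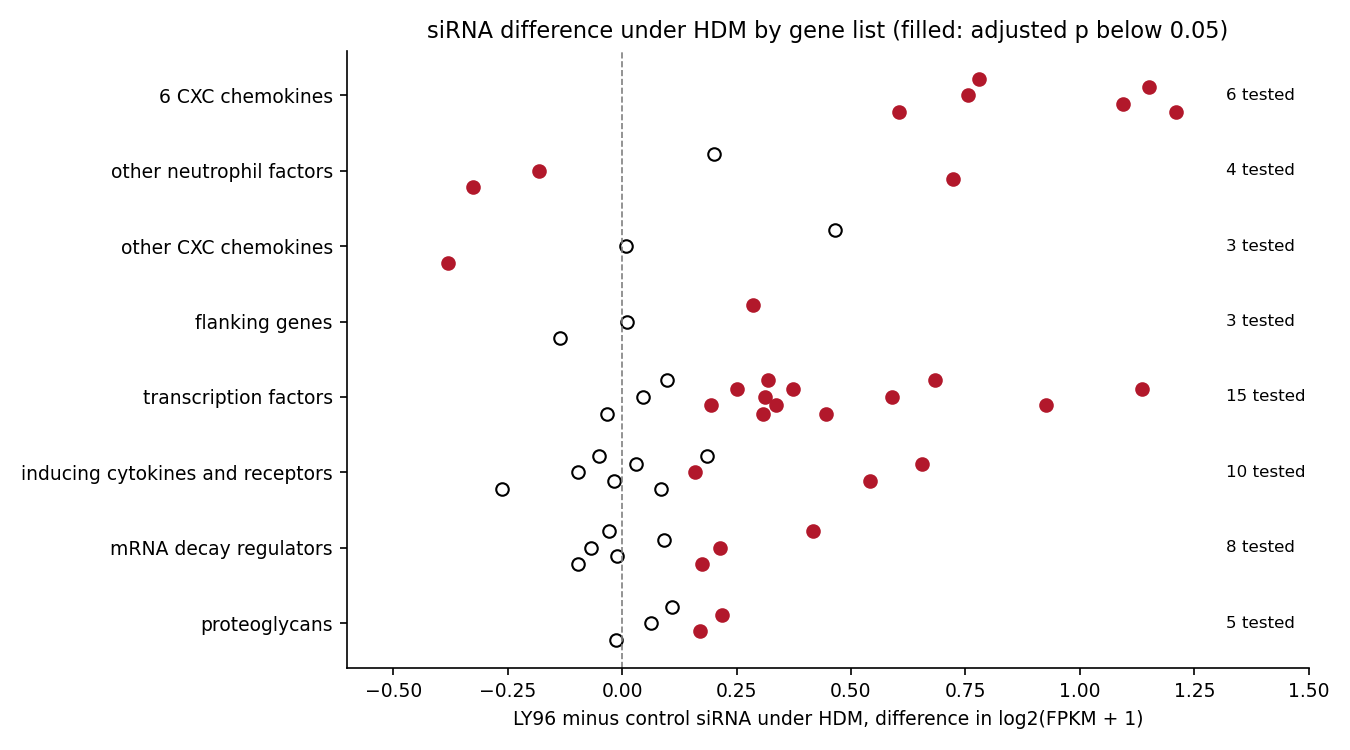
Difference between LY96 and control siRNA under HDM in log2(FPKM + 1) for the tested genes of 8 lists. Filled points have an adjusted p below 0.05. All 6 chemokine genes lie at log2 0.60 or more. So do DDIT3 (1.14), ATF4 (0.93), IL6 (0.72), ATF3 (0.68) and IL1A (0.65) of the other lists. The proteoglycans lie at log2 0.22 or less.

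The 6 chemokine genes followed each other closely, with Pearson r of log2(FPKM + 1) from 0.955 to 0.996 for their pairs over the 8 libraries, which share the contrast of HDM with PBS. Among 8894 other genes averaging 5 FPKM or more, those whose profile over the 8 libraries was most like the mean profile of the 6 were ranked by Pearson r. The first 8 were C1R (r = 0.999), NFKB2 (0.997), TNFAIP2 (0.997), TNIP1 (0.997), SOD2 (0.996), TNFAIP3 (0.996), SLC18B1 (0.995) and RELB (0.994). C1R encodes a serine protease of the classical complement pathway. It was at 110 ± 11.2 FPKM with LY96 siRNA and HDM and 76.3 ± 0.462 FPKM with control siRNA and HDM (SD, n = 3 each), 34.1 FPKM with LY96 siRNA and PBS and 30.7 FPKM with control siRNA and PBS. SOD2, mitochondrial superoxide dismutase, was at 129 ± 4.23 FPKM with LY96 siRNA and HDM and 78.4 ± 2.79 FPKM with control siRNA and HDM (SD, n = 3 each), 32.5 FPKM with LY96 siRNA and PBS and 30.3 FPKM with control siRNA and PBS. NFKB2 and RELB encode NF-kB subunits, and TNFAIP3 and TNIP1 encode the feedback regulator A20 and its binding partner.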

How the data were processed

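The deposited tables hold 1 value per gene symbol and library. The labels do not name the unit, and the authors' deposited values were read as FPKM because they are not whole numbers and each library has a different total. The submitters' processing notes name HISAT2 2.2.0 and build hg38, while quantifier and annotation were not stated there. Repeated values were seen mainly among microRNA genes, whole reads could not be recovered, and no counting interval is given.

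Differences were tested with limma 3.58.1 in R 4.3.3 on log2(FPKM + 1), with trended and robust moderation, keeping genes that averaged 1 FPKM or more across the fitted libraries. This scale understates changes of low genes. The siRNA difference used the 6 HDM libraries, and the other 3 comparisons were contrasts of 4 group means over 8 libraries, each fit with 4 residual degrees of freedom. Tests were two-sided, with Benjamini-Hochberg adjustment across every gene tested. The comparisons share libraries and variance estimates. A fold is a quotient of group means in FPKM. Pairs of genes were compared with exact permutation tests (SciPy 1.17.1). Promoters are from RefSeq (GRCh38.p14, all 6 genes matched by symbol) and were aligned with Biopython 1.88. The code was tested on simulated data. From each list of other genes up to 4 were to be named, those with the highest mean FPKM. ZC3H12A, ZFP36, IL1A, IL1B, IL1R1, RELA, ATF3, DDIT3, COL1A1, PDGFRB and genes below the level tested were named after their values were seen. The members and lists were chosen with earlier results of these data known.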

Additional observations from a re-analysis of the deposited data

How the results depend on the processing

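The 6 chemokine genes kept their direction in all alternatives run: pseudocounts of 0.1 and 0.25, no filter on low values, median-ratio scaling, quantile normalization, moderation with neither trend nor robust option, and leaving out each HDM library. In these, and in the 4-group model and the replicate block for the siRNA comparison, 296 values kept their side of the threshold, 2 were lost (CXCL2 and CXCL6) and 2 gained (CXCL8), as given above. Leaving out 1 HDM library, the siRNA comparison called 5 to 6 of the 6 genes higher, 566 to 646 of all genes higher and 553 to 799 lower, against 842 and 1124, with the fewest lower without control siRNA replicate 2. HDM with LY96 siRNA then had 191 to 231 genes lower, and HDM with control siRNA 126 to 218 higher and 53 to 111 lower, against 195 and 93, with the fewest higher without control siRNA replicate 2 and the fewest lower without control siRNA replicate 3. For the difference in HDM response the ranges were 0 to 31 genes higher, 0 to 2 lower and 0 to 1 of the 6 chemokine genes, against 7, 0 and 0, with 31 higher without LY96 siRNA replicate 2 and 0 without control siRNA replicate 1. With neither the trend nor the robust option 158 genes were lower with HDM under LY96 siRNA, against 250, 47 under control siRNA, and 0 were higher in the difference in response. Without the filter that difference had 13 genes higher and 7 lower, and after quantile normalization 14 higher, with 1 of the 6 chemokine genes. The cause of these changes was not tested. Fitted HDM differences of low genes grow with a smaller pseudocount: CXCL6 with control siRNA was at log2 1.38, and at 4.10 with 0.1.

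Same-numbered HDM libraries of the 2 siRNAs did not deviate together (r = 0.05, -0.02 and -0.02 across genes), so the numbers were not taken to pair libraries. With the replicate number as a block, 716 genes were higher, among them 6 of the 6 chemokine genes, and 919 lower between the siRNAs. No paired analysis was possible for the HDM comparisons because PBS has 1 library per siRNA.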
